A study of Mus musculus with 6 samples.

Results

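The genes described here are 56 genes of mitosis, the spindle and the kinetochore, chosen by name as parts of the machinery that divides the chromosomes. Earlier results of these data were known when they were chosen. A gene was measured where the platform annotation gave a probe set (a group of short probes read together) to that gene alone, and 55 of the 56 were, out of 18193 genes tested. No value was used for Ccnb1, the mitotic cyclin B1. The samples were mouse hepatocellular carcinoma cells on Affymetrix arrays in 3 lines, each with 2 arrays: M1 and I1, subpopulations picked for migration and titled subclone lines, and BL185, the parent line from which both derive. All were cultured in DMEM with 10% serum, and no treatment, genotype or animal age is given. With no unselected subclone among the arrays, effects of selection and of subcloning cannot be told apart. Nothing in the titles says that the arrays of a pair hold RNA of separate cultures, so the spread behind every p-value is that between 2 arrays and may be technical.

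A dividing cell enters mitosis when cyclin-dependent kinase 1, bound to cyclin A or B, is switched on by a CDC25 phosphatase. Condensin then packs the chromosomes, kinetochores form on the centromeres and are caught by spindle microtubules, and the spindle checkpoint holds back the anaphase promoting complex until every chromosome is attached. The RNAs of most of these genes peak together late in the cell cycle, under the DREAM and B-MYB–MuvB complexes and FOXM1, so their summed level in a culture is widely read as a measure of proliferation. In RNA from whole cultures, a larger share of dividing cells and more RNA per dividing cell cannot be told apart.

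The values are log2 signals, so a difference of 1 is a doubling on the linear scale. The M1 arrays were the least alike, with a correlation of 0.911 over all probe sets, against 0.994 in I1 and 0.997 in BL185. The SD over probe sets was 1.62 on M1 replicate 1, the narrowest, and 1.83 to 1.97 on the other arrays. The array medians were 7.87 to 8.11, and signal at or below them cannot be told from background. The control probe set for 18S ribosomal RNA read 12.50 and 10.68 in M1, 11.27 and 11.51 in I1, and 10.11 and 10.14 in BL185. As a check of RNA integrity, the 3′ signal of Actb exceeded its 5′ signal by 1.43 and 1.24 in M1, 1.47 and 1.43 in I1, and 1.08 and 0.88 in BL185. Both measures were thus higher in the selected lines, and their part in every difference from BL185 given here was not tested. All 5 epithelial markers were above the median of every array, among them the keratin Krt8 (14.94 to 15.23). Of 5 hepatocyte and liver tumour markers, 2 were above the median of every array and 0 below it. These 2 were the liver transcription factor Hnf4a (11.94 to 13.34) and Ttr (8.72 to 9.92). The others were albumin, Alb (7.53 to 8.43), Apoa1 (7.42 to 9.27) and Afp (7.14 to 9.89). Of 12 markers of fibroblasts and stellate cells, endothelium and leukocytes, 4 were below the median of every array and 5 above it. Those below were the leukocyte marker Ptprc (6.25 to 7.17), the endothelial markers Pecam1 (6.61 to 7.76) and Cdh5 (7.17 to 7.46), and Lrat (6.64 to 6.80). Those above were the endothelial receptor Kdr (8.58 to 9.22), the macrophage lysozyme Lyz2 (8.51 to 9.54), Adgre1 (8.05 to 8.24), Col1a2 (8.04 to 8.41) and Dcn (7.99 to 8.73). The lysosomal macrophage marker Cd68 read 7.51 and 7.37 in M1, 7.78 and 7.41 in I1, and 10.74 and 10.56 in BL185. It fell by 3.21 in M1 and by 3.05 in I1 (limma adjusted p = 0.0147 and 0.0262), the only one of the 12 called in either line. The log2 signals of the 12 summed to 96.3 and 91.78 in M1, 93.08 and 93.89 in I1, and 93.35 and 94.17 in BL185. The part of other cell types in the differences given here was not tested.

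Mitotic RNAs were higher in both selected lines than in the parent. All 55 genes had a higher mean in M1 than in BL185, with a median log2 difference of 1.76 and a range of 0.24 to 3.37. All 55 were also higher in I1 than in BL185, with a median of 1.65 and a range of 0.38 to 3.28. Over all genes tested the median was 0.07 in M1 and 0.06 in I1, and 55.5% of genes in M1 and 56.6% in I1 had a positive difference. The difference was at least 1 log2 unit for 46 of 55 mitotic genes in M1, where 2.7% of all genes reached that size. It was at least 1 log2 unit for 46 in I1 as well, where 2.45% of all genes did. The 2 comparisons share the BL185 arrays and are not independent of each other.

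The arrays themselves show the same order. Both M1 arrays lay above both BL185 arrays for 51 of 55 genes, a pattern that 26.2% of all genes had. Both I1 arrays lay above both BL185 arrays for all 55, against 42.6% of all genes. The exceptions in M1 were the phosphatase Cdc25b, the CDK-binding protein Cks2, the kinetochore protein Cenpk and the condensin ATPase Smc4. For each of them M1 replicate 2 was above both parent arrays. M1 replicate 1 lay between the parent arrays for Cdc25b, Cks2 and Smc4, and below both for Cenpk.

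**Figure D1:**
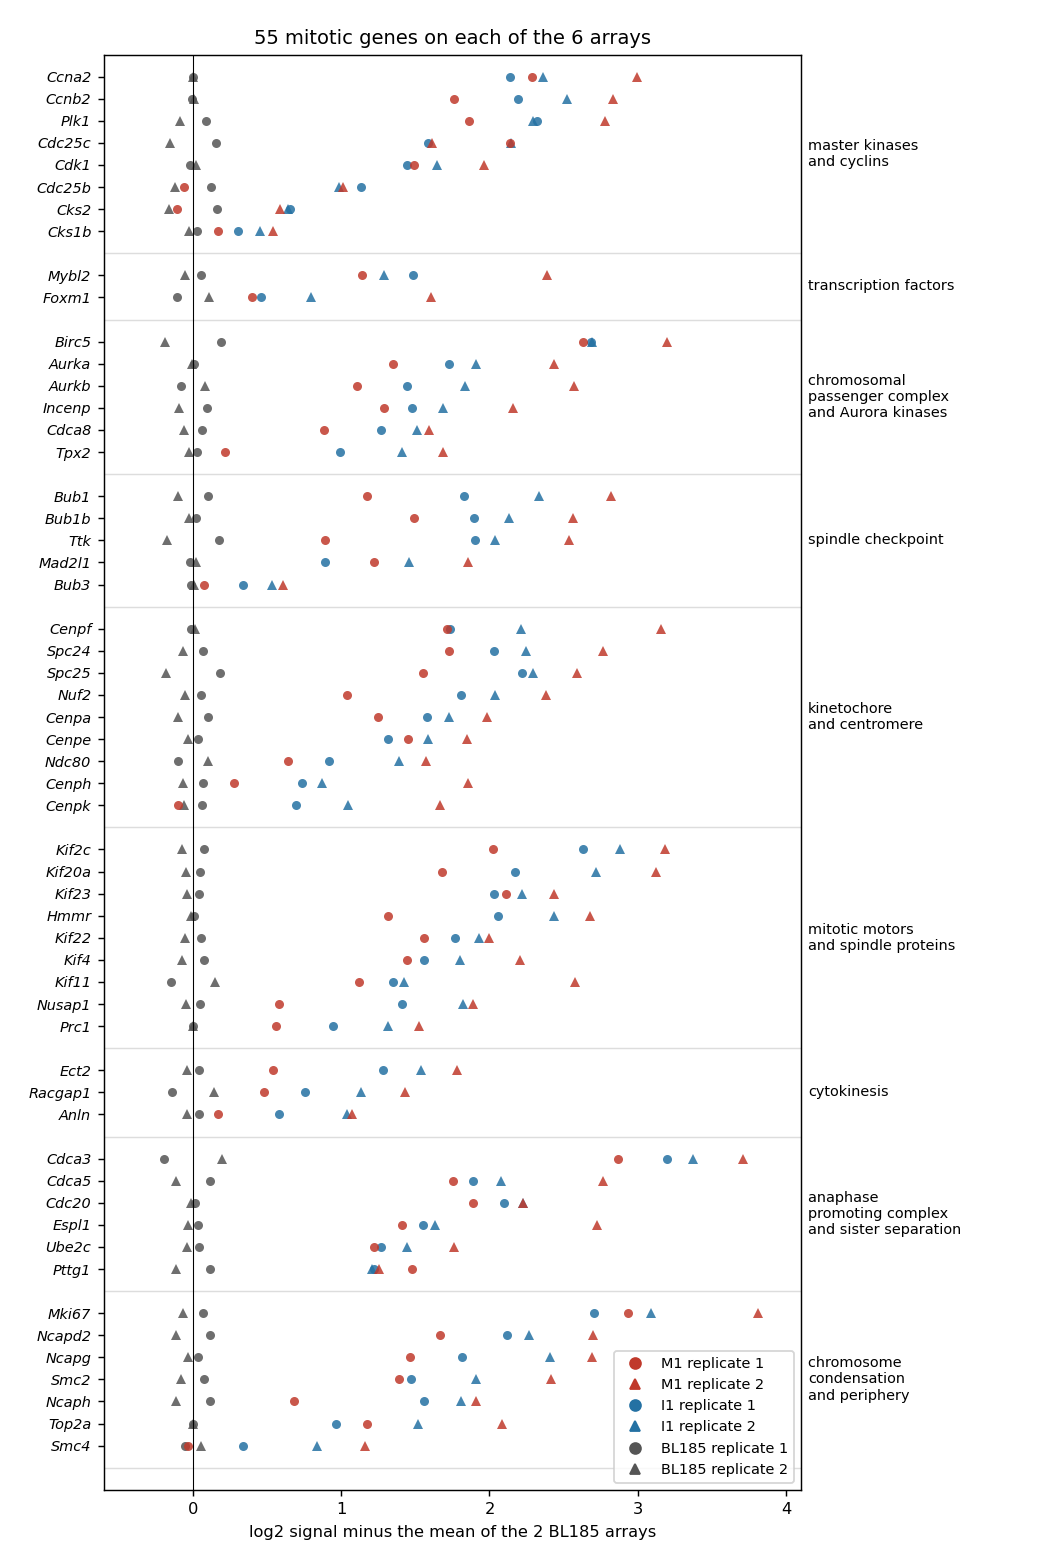
Log2 signal of each of the 55 mitotic genes on each of the 6 arrays, minus the mean of the 2 BL185 arrays (horizontal axis), with genes grouped by role and ordered within a role by their mean difference; circles are replicate 1 and triangles replicate 2. The I1 points lie right of the BL185 points for every gene, and M1 replicate 1 lies left of M1 replicate 2 for 53 of 55 genes.

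By limma with Benjamini-Hochberg adjustment over all 18193 genes, 7 of the 55 rose in M1 at an adjusted p under 0.05 and 0 fell, where 0.275% of all genes rose and 0.605% fell. In I1, 4 of 55 rose and 0 fell, where 0.192% of all genes rose and 0.319% fell. At an unadjusted p under 0.05, 45 of the mitotic genes were higher in M1 and 46 in I1, against 3.92% and 4.18% of all genes. At that level 0 mitotic genes were lower in either line, where 2084 of the 18193 genes were lower in M1 and 1359 in I1. The genes that rose in both lines were Cdca3, Birc5, Kif23 and Cdc20, and those that rose in M1 were these with Mki67, Ccna2 and Kif22. The fit shares a single spread over the 3 lines, which were not equally variable: the median between-replicate SD of the mitotic genes was 0.72 in M1, 0.16 in I1 and 0.08 in BL185.

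The calls depended on which arrays entered the fit. When I1 and BL185 were fitted on their own 4 arrays, all 55 genes were higher in I1, with a largest adjusted p of 0.015 by limma, where 22.5% of all genes were called higher. When M1 replicate 1 was left out, all 55 were higher in M1, where 11.7% of all genes were called higher, although M1 is then 1 array whose spread is taken from the other lines. Without M1 replicate 2, 46 of 55 were called higher in M1, where 32.4% of all genes were. After quantile normalization 47 were called higher in M1 and 45 in I1, where 3.48% and 3.34% of all genes were, and after cyclic loess 51 and 46, where 4.66% and 4.2% were. Without either BL185 array, 0 were called in either selected line, as were 0% of all genes, higher or lower. Without either I1 array, or with the 4 arrays of M1 and BL185 alone, 0 were called in M1, and without either I1 array 0 were called in I1, again with 0% of all genes called. A count of 0 in these settings is thus not specific to the mitotic genes. In them 30 to 41 of the 55 were higher at an unadjusted p under 0.05, against 1.48% to 2.45% of all genes.

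Cdca3, which encodes a trigger of mitotic entry, had the largest difference in I1. Its log2 signal was 11.40 and 12.24 in M1, 11.72 and 11.90 in I1, and 8.33 and 8.73 in BL185. This was a log2 difference of 3.29 ± 0.33 in M1 (SE; limma adjusted p = 0.0288) and 3.28 ± 0.33 in I1 (adjusted p = 0.0382), or 9.77-fold and 9.74-fold. The M1 and I1 arrays lay far above the parent and overlapped with each other. Its 2 other probe sets, with means of 8.13 and 6.56, differed by only 0.40 and 0.33 in M1 and 0.21 and 0.22 in I1.

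Mki67 encodes Ki-67, the protein that coats mitotic chromosomes and the standard marker of proliferating cells. It read 12.15 and 13.03 in M1, 11.92 and 12.31 in I1, and 9.28 and 9.15 in BL185. The log2 difference was 3.37 ± 0.34 in M1 (limma adjusted p = 0.0286) and 2.90 ± 0.34 in I1, which just missed the threshold (adjusted p = 0.0516).

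Birc5 encodes survivin, the subunit that brings the chromosomal passenger complex to the centromere. Its signal was 12.61 and 13.18 in M1, 12.67 and 12.67 in I1, and 10.17 and 9.79 in BL185. It rose by 2.92 ± 0.26 in M1 (limma adjusted p = 0.0235) and by 2.69 ± 0.26 in I1 (adjusted p = 0.037), and the 2 selected lines overlapped.

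Cdc20, the activator that turns the anaphase promoting complex on at the end of the checkpoint, read 13.01 and 13.35 in M1, 13.22 and 13.35 in I1, and 11.14 and 11.11 in BL185. It rose by 2.06 ± 0.19 in M1 (limma adjusted p = 0.0254) and 2.16 ± 0.19 in I1 (adjusted p = 0.036). Its 2 other probe sets were higher as well, by 2.02 and 1.14 in M1 and by 2.14 and 1.25 in I1.

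Kif23, a kinesin of the central spindle needed for cytokinesis, read 12.06 and 12.39 in M1, 11.98 and 12.17 in I1, and 9.99 and 9.91 in BL185. It rose by 2.28 ± 0.20 in M1 (limma adjusted p = 0.0235) and 2.12 ± 0.20 in I1 (adjusted p = 0.037). Its other probe sets had means of 7.64 and 6.86, below the array medians. The dimmest of them had a difference of -0.10 in M1 and -0.22 in I1.

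Kif22, a kinesin that pushes chromosome arms away from the spindle poles, read 13.11 and 13.55 in M1, 13.32 and 13.48 in I1, and 11.61 and 11.50 in BL185. Its log2 difference was 1.78 ± 0.22 in M1 (limma adjusted p = 0.0462) and 1.85 ± 0.22 in I1 (adjusted p = 0.0524). The size was thus slightly larger in I1, where the gene missed the threshold. The probe sets used for Kif22, Cdc20, Kif2c, Aurkb, Incenp, Ncaph and Cdc25c, 7 of the 55, are of a type that can also bind other transcripts. Only this type was counted, and whether those of the remaining genes bind other transcripts was not tested. The other probe sets of Kif22 and Cdc20 were higher too.

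Ccna2, cyclin A2, which partners CDK2 in S phase and CDK1 at mitotic entry, read 12.46 and 13.17 in M1, 12.31 and 12.53 in I1, and 10.18 and 10.17 in BL185. It rose by 2.64 ± 0.28 in M1 (limma adjusted p = 0.0314), and its difference in I1 was 2.25 ± 0.28 (adjusted p = 0.0592).

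**Figure D2:**
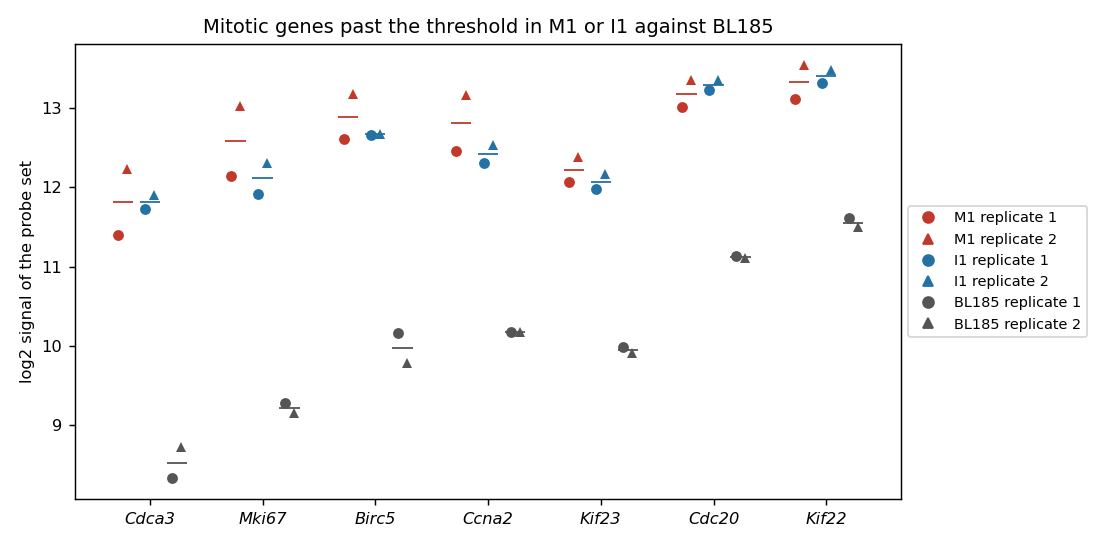
Log2 signal (vertical axis) of the 7 mitotic genes past an adjusted p of 0.05 in M1 or I1 against BL185, on each array, with a line at the mean of each line. The 4 arrays of M1 and I1 lie between 11.40 and 13.55 and the 2 BL185 arrays lie below them for every gene.

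The promoters of these genes are shown because genes of this kind are known to share a pair of elements. The first is the cell cycle homology region, TTTGAA or TTCGAA, to which the MuvB complexes bind. The second is the CCAAT box, CCAAT, bound by NF-Y. Each line gives the 150 bases before the annotated start, 5′ to 3′ on the gene's strand, from RefSeq sequence of GRCm38.p6. Matches to either element on either strand that lie wholly within a line are in capitals. Another CCAAT box of Cdca3 begins 4 bases before the start, runs past the end of its line and is not in capitals. The first 4 genes rose in both selected lines. Mki67 rose in M1, and Cdk1, the kinase at the head of the pathway, was added after its promoter was seen.
Birc5, chr11:117849087-117849236, plus strand: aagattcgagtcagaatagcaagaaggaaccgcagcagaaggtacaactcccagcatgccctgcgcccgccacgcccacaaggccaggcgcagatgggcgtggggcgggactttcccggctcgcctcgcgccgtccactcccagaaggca
Cdc20, chr4:118437344-118437493, minus strand: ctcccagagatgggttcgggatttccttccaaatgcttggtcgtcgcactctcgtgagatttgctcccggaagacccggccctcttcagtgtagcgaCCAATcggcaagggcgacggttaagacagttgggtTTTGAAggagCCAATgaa
Cdca3, chr6:124830026-124830175, plus strand: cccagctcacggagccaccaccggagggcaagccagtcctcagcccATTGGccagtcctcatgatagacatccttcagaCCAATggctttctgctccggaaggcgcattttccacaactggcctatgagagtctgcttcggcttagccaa
Kif23, chr9:61946800-61946949, minus strand: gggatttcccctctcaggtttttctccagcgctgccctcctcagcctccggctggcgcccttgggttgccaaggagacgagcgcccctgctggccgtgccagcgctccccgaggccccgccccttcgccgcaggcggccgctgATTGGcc
Mki67, chr7:135716380-135716529, minus strand: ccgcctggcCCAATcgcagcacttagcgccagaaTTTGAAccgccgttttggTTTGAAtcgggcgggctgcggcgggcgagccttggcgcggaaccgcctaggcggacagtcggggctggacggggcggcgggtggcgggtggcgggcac
Cdk1, chr10:69352913-69353062, minus strand: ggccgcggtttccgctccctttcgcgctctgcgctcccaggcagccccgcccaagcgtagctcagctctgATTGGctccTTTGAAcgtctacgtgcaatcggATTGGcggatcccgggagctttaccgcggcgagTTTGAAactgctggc

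In several genes the homology region lay just after the annotated start, and 3 such sites are given as 26 bases each, with the same capitals. They show the site of 2 genes that rose in both lines, Cdca3 and Kif23, and of the mitotic kinase Plk1, added after its promoter was seen.
Cdca3, chr6:124830196-124830221, plus strand: tggagggaagTTTGAAactccgggct
Kif23, chr9:61946782-61946807, minus strand: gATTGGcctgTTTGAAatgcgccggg
Plk1, chr7:122159455-122159480, plus strand: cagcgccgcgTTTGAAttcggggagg

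Promoter windows of 300 bases, 250 before and 50 after the start, were found for 47 of the 56 genes, and the first listed window was used for the 4 genes with several. The homology region was present in 35 of the 47, or 74.5%, against 19.4% of the first windows of all 27025 genes and 15.0% of those of the genes tested. The CCAAT box was present in 36, or 76.6%, against 37.9% of all windows and 38.2% of those of the genes tested. Both were present in 31, or 66.0%, against 7.7% of all. The homology region began within 50 bases of the start in 32 of the 47, or 68.1%, against 5.29% of all. In Cdc20 it began 18 bases before the start, in Espl1, the separase that cuts cohesin, 27 before, and in Ncapg, a condensin subunit, 30 before. Birc5 held neither motif in its window, which says only that these letters are not there.

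Differences from BL185 covered a wide range with the motif and without it. The 35 genes with the homology region had a median log2 difference of 1.89 in M1 and 1.82 in I1, and the 11 measured genes without it 1.37 and 1.39. The ranges overlapped, at 0.34 to 3.37 with the motif and 0.24 to 2.92 without it in M1, and at 0.38 to 3.28 and 0.65 to 2.69 in I1. These values are a description, since genes are not replicates. Cdc20 and Cks1b, a small CDK-binding protein, both held the 2 elements, and their differences in I1 were 2.16 and 0.38. The Cks1b value was the smallest of the 55 in I1 and came from a probe set near the top of the scale. The other Cks1b probe set differed by 0.57 in I1.

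**Figure D3:**
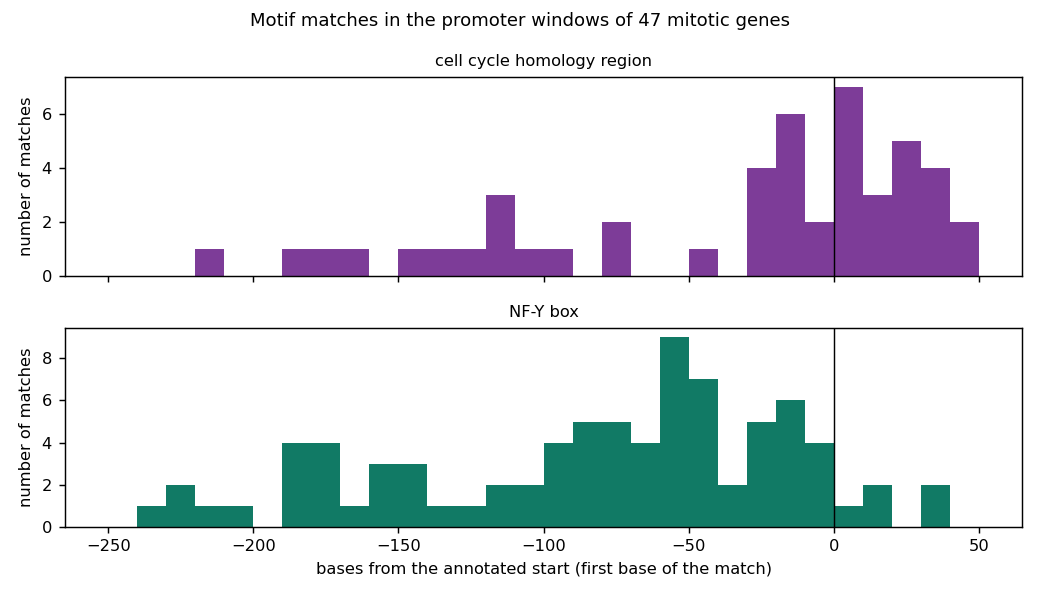
Number of matches in bins of 10 bases (vertical axis) against the distance of the first base of the match from the annotated start (horizontal axis) in the promoter windows of 47 mitotic genes, for the cell cycle homology region above and the NF-Y box below. Matches to the homology region gather within 50 bases of the start, and those to the NF-Y box lie mostly before it.

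Among the kinases and cyclins that drive mitotic entry, 8 of 9 genes were measured, with a median difference of 1.80 in M1 and 1.71 in I1. By limma 1 rose in M1 and 0 in I1. Of all genes 0.275% rose in M1 and 0.192% in I1, the shares to set beside the calls in each role below. Cdk1 read 12.73 and 13.21 in M1, 12.69 and 12.89 in I1, and 11.22 and 11.26 in BL185. Its difference was 1.73 ± 0.23 in M1 and 1.55 ± 0.23 in I1 (limma adjusted p = 0.0505 and 0.0799), short of the threshold although no selected array overlapped with the parent. The Polo-like kinase Plk1, which acts from mitotic entry to cytokinesis, read 11.09 and 12.01 in M1, 11.55 and 11.52 in I1, and 9.31 and 9.14 in BL185. Its differences of 2.32 ± 0.33 and 2.31 ± 0.33 had adjusted p-values of 0.0597 and 0.0766.

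Cks1b and Cks2, paralogs that bind CDKs, had the smallest differences of this group. Cks1b read 14.02 and 14.39 in M1, 14.15 and 14.30 in I1, and 13.87 and 13.82 in BL185, a difference of 0.35 ± 0.20 in M1 and 0.38 ± 0.20 in I1 (limma adjusted p = 0.428 and 0.576). Cks2 read 12.42 and 13.12 in M1, 13.18 and 13.17 in I1, and 12.69 and 12.37 in BL185, a difference of 0.24 ± 0.28 in M1 and 0.65 ± 0.28 in I1 (limma adjusted p = 0.608 and 0.489). The Cks1b values lie near the top of the scale, 15.43. The other Cks1b probe set, with a mean of 12.93, differed by 0.65 in M1 and 0.57 in I1. Cdc25b, a phosphatase that activates CDK1, read 9.69 and 10.77 in M1, 10.89 and 10.74 in I1, and 9.88 and 9.64 in BL185. It was higher on 1 of the 2 M1 arrays and on both I1 arrays.

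Neither of the transcription factors that drive these genes passed the threshold. Mybl2, which encodes B-MYB, read 9.34 and 10.59 in M1, 9.69 and 9.49 in I1, and 8.26 and 8.15 in BL185, a difference of 1.76 ± 0.42 in M1 and 1.39 ± 0.42 in I1 (limma adjusted p = 0.159 and 0.291). Foxm1 read 10.02 and 11.23 in M1, 10.08 and 10.41 in I1, and 9.51 and 9.73 in BL185, a difference of 1.00 ± 0.42 in M1 and 0.62 ± 0.42 in I1 (limma adjusted p = 0.35 and 0.66). The selected lines lay above the parent on every array for both genes, by less for Foxm1 on the probe sets used. The other Mybl2 probe set, with a mean of 8.29, differed by 1.00 in M1 and 0.56 in I1, so this order depends on the probe set. Of the 3 other Foxm1 probe sets, those with means of 9.54 and 9.50 had differences of 1.20 and 1.68 in M1 and 0.82 and 1.20 in I1.

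The chromosomal passenger complex, whose kinase is AURKB, and the AURKA partner TPX2 had a median difference of 1.78 in M1 and 1.61 in I1 over 6 genes, with Birc5 called in each. Tpx2, a spindle assembly factor that activates AURKA, had the smallest. It read 10.44 and 11.91 in M1, 11.22 and 11.63 in I1, and 10.25 and 10.20 in BL185, so M1 replicate 1 was only slightly above the parent. The kinases Aurka and Aurkb had differences of 1.89 ± 0.37 and 1.84 ± 0.50 in M1 and of 1.82 ± 0.37 and 1.64 ± 0.50 in I1, with limma adjusted p-values of 0.11 to 0.289.

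The 5 spindle checkpoint genes had a median of 1.71 in M1 and 1.97 in I1, with 0 called in either line by limma. At an unadjusted p under 0.05, 4 were higher in each, against 3.92% of all genes in M1 and 4.18% in I1. The checkpoint kinase Bub1 read 10.37 and 12.02 in M1, 11.02 and 11.53 in I1, and 9.30 and 9.09 in BL185, a difference of 1.998 ± 0.56 in M1 and 2.08 ± 0.56 in I1. Bub3, the WD-repeat protein that carries BUB1 to the kinetochore, had the smallest difference, with 13.19 and 13.73 in M1, 13.46 and 13.65 in I1, and 13.11 and 13.13 in BL185.

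For the 9 kinetochore and centromere genes the median was 1.65 in M1 and 1.65 in I1, again with 0 called in either line by limma. At an unadjusted p under 0.05, 7 were higher in each, against 3.92% of all genes in M1 and 4.18% in I1. Cenpf, a large kinetochore protein of the outer plate, read 10.71 and 12.16 in M1, 10.73 and 11.22 in I1, and 8.99 and 9.01 in BL185. The difference was 2.43 ± 0.50 in M1 and 1.97 ± 0.50 in I1. Its other probe sets, with means of 8.15 and 7.40, differed by only 0.45 and 0.81 in M1 and 0.15 and 0.17 in I1. The NDC80 complex, which holds the microtubule end, was measured in full, and its subunits Ndc80, Nuf2, Spc24 and Spc25 had differences of 1.11, 1.71, 2.25 and 2.07 in M1 and 1.15, 1.92, 2.14 and 2.26 in I1. Cenpk, of the inner kinetochore, read 9.10 and 10.88 in M1, 9.91 and 10.26 in I1, and 9.27 and 9.15 in BL185. The parent's means of Nuf2, Cenph and the kinesin Kif20a were within the range of the array medians or below it, so the sizes of their differences are not exact.

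The 9 motors and spindle proteins had medians of 1.85 in M1 and 1.85 in I1, with Kif23 and Kif22 called in M1 and Kif23 in I1. All 9 were higher at an unadjusted p under 0.05 in both, against 3.92% of all genes in M1 and 4.18% in I1. Kif2c, a kinesin that depolymerises microtubules at the centromere, had the largest mean difference, with 10.53 and 11.69 in M1, 11.14 and 11.39 in I1, and 8.58 and 8.43 in BL185. Its log2 differences of 2.60 ± 0.40 and 2.76 ± 0.40 had limma adjusted p-values of 0.0705 and 0.0799. They come from a probe set that can also bind other transcripts, and its 3 other probe sets differed by 1.55, 0.42 and 0.25 in M1 and by 1.13, 0.24 and 0.34 in I1. Prc1, which bundles the microtubules of the central spindle, read 11.54 and 12.51 in M1, 11.93 and 12.30 in I1, and 10.98 and 10.99 in BL185.

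The 3 genes listed under cytokinesis had the lowest medians of the roles, 0.95 in M1 and 0.94 in I1. By limma 0 were called in either line. At an unadjusted p under 0.05, 2 were higher in each, against 3.92% of all genes in M1 and 4.18% in I1. The medians depend on how genes were assigned to roles. Kif23, also needed for cytokinesis, was counted with the motors, with differences of 2.28 in M1 and 2.12 in I1. Ect2, the exchange factor that switches on RhoA at the cleavage furrow, read 10.90 and 12.15 in M1, 11.65 and 11.91 in I1, and 10.41 and 10.32 in BL185. Anln, the ring scaffold anillin, read 11.63 and 12.54 in M1, 12.05 and 12.50 in I1, and 11.50 and 11.43 in BL185. Both genes were higher on every selected array, though M1 replicate 1 stood close to the parent for Anln. The other Anln probe set, with a mean of 8.03, went the other way, by -0.44 in M1 and -0.19 in I1.

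The 6 genes listed under the anaphase promoting complex and sister separation had the highest median of the roles in M1, 2.06. Their median in I1 was 1.79, and Cdc20 and Cdca3 were called in each line. These medians, too, depend on how genes were assigned to roles, since Cdca3, a trigger of mitotic entry, was counted here. Core subunits of the complex are in the further list below, where they did not share one direction. Pttg1, securin, which keeps separase inactive until anaphase, was one of the 2 genes in which M1 replicate 1 exceeded M1 replicate 2. It read 14.70 and 14.48 in M1, 14.44 and 14.43 in I1, and 13.34 and 13.11 in BL185, a difference of 1.37 ± 0.19 in M1 and 1.21 ± 0.19 in I1 (limma adjusted p = 0.0565 and 0.0899). All its selected arrays were higher than the parent, near the top of the scale.

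The 7 genes of chromosome condensation and the chromosome periphery had medians of 1.90 in M1 and 1.69 in I1, with Mki67 called in M1. The condensin I subunits Ncapd2, Ncapg and Ncaph differed by 2.18, 2.08 and 1.30 in M1 and by 2.19, 2.11 and 1.68 in I1. Smc4, an ATPase that condensin I and II share, read 11.84 and 13.04 in M1, 12.21 and 12.71 in I1, and 11.82 and 11.93 in BL185. Its difference of 0.56 ± 0.43 in M1 and 0.59 ± 0.43 in I1 (limma adjusted p = 0.479 and 0.678) turns to -0.0085 and -0.11 when its 3 probe sets are averaged.

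The level of M1 replicate 1 entered nearly every value above. It was lower than M1 replicate 2 for 53 of 55 mitotic genes. Relative to the BL185 mean, the median mitotic gene stood at 1.29 and 2.21 on the M1 arrays and at 1.55 and 1.81 on the I1 arrays. The genes were compared with all 3479 others whose mean over the 6 arrays lay between 10.29 and 11.90, the quartiles of the mitotic genes. Those stood at -1.004 and -0.01 on the M1 arrays and at -0.30 and -0.15 on the I1 arrays. In this band of signal the 27 mitotic genes had medians of 1.998 in M1 and 1.98 in I1, against -0.50 and -0.23 for the 3479. Genes of middle and high signal thus stood lower on M1 replicate 1, and the mitotic genes were higher than BL185 on that array by a median of 1.29 while the band was lower. The mean behind the band includes the M1 and I1 arrays, so the 2 groups were not alike in BL185. On the BL185 arrays the medians were 9.82 and 9.72 for the 27 mitotic genes and 11.28 and 11.24 for the 3479. The part of this unlike parent signal in the contrast was not tested.

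**Figure D4:**
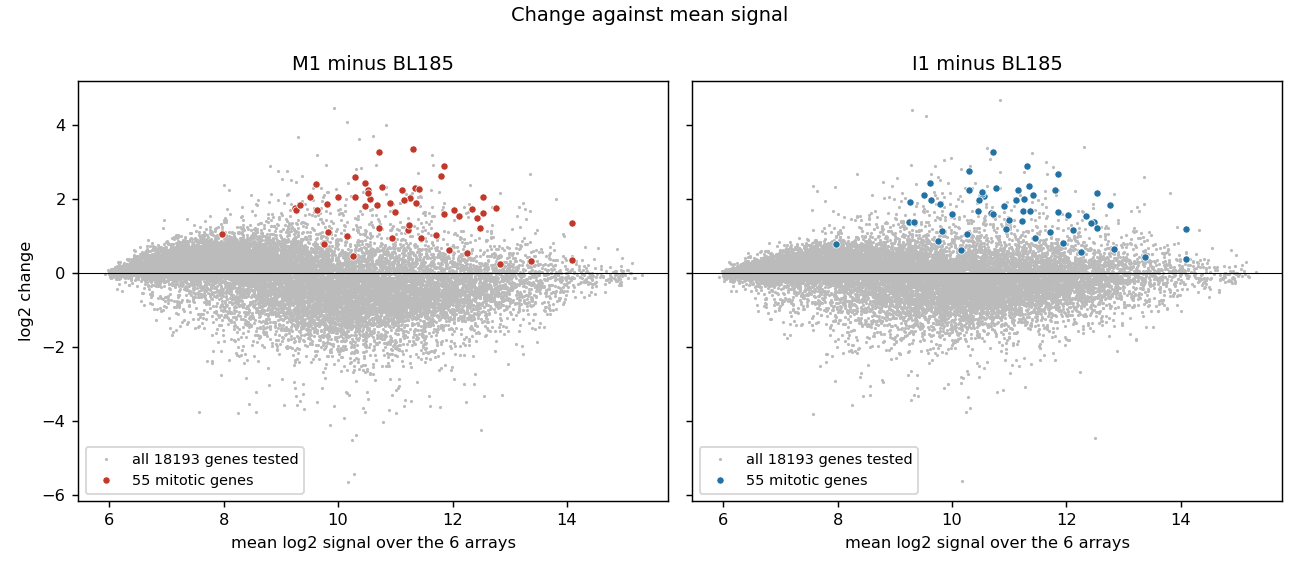
Log2 difference from BL185 (vertical axis) against the mean log2 signal over the 6 arrays (horizontal axis) for all 18193 genes in grey and the 55 mitotic genes in colour, for M1 on the left and I1 on the right. Every mitotic gene lies above 0, by up to 3.37 in M1 and 3.28 in I1. Most other genes of like mean signal over the 6 arrays lie below 0.

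I1 and M1 did not differ detectably in these genes. The median difference, I1 minus M1, was -0.0045, 27 of 55 had a higher mean in I1, where 49.6% of all genes did, and 0 passed the threshold by limma, with 0 at an unadjusted p under 0.05. Over all genes 0% were called higher and 0% lower. At an unadjusted p under 0.05, 1.83% of all genes were higher and 76 of the 18193 were lower. The largest positive difference was 0.59 ± 0.38 for Cdc25b, with a 95% interval of -0.37 to 1.54, and the largest negative was -0.48 ± 0.34 for Mki67, with an interval of -1.33 to 0.38. These intervals include differences of more than 1 log2 unit, so the lines are not shown to be alike. The arrays of the 2 lines did not overlap for Cks2, higher in I1, and Pttg1, lower in I1. Of all genes 8.13% were higher on both I1 arrays, and 1449 of the 18193 were lower on both. The direction turned with the M1 array that was kept. With M1 replicate 1 left out, 28 mitotic genes were lower in I1 and 0 higher, where 13.4% of all genes were lower, and with M1 replicate 2 left out 32 were higher and 0 lower, where 36.1% were higher.

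Most members had more than a single probe set. The 39 genes with more had 71 others, of which 60 were higher in M1 and 60 in I1 than in BL185, with medians of 0.55 and 0.37. Of the 42 with a mean of at least 8, 39 were higher in M1 and 40 in I1. With an unadjusted p under 0.05, 0 were lower in either line by limma. The direction was thus shared by most probe sets, whereas the size was smaller on the dimmer ones.

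A further list of mitotic genes was less uniform. Both lists were chosen with earlier results of these data known, and the part of that choice in the contrast was not tested. Of 83 further mitotic genes, such as kinetochore subunits, cohesins and ubiquitin ligase subunits, 67 were higher in M1 and 69 in I1, with medians of 0.69 in M1 and 0.69 in I1. By limma 0 were called in either line. At an unadjusted p under 0.05, 28 were higher and 1 lower in M1, and 29 were higher and 0 lower in I1. Of all genes 3.92% were higher in M1 and 4.18% in I1, while 2084 of the 18193 were lower in M1 and 1359 in I1. With the 4 arrays of I1 and BL185 alone, 54 were called higher and 4 lower in I1, where 22.5% and 24.1% of all genes were. The largest mean differences, chosen after their values were seen, were in Shcbp1, a midbody protein, with 2.92 in M1 and 3.10 in I1 (limma adjusted p = 0.0506 and 0.0582), in Melk, a kinase of dividing cells, with 2.13 in M1 and 2.62 in I1 (adjusted p = 0.24 and 0.206), and in Cep55, the abscission scaffold, with 2.33 in M1 and 2.31 in I1 (adjusted p = 0.0979 and 0.129). The lowest were Zwint, which links kinetochore complexes, with -1.11 in M1 and -0.83 in I1, and Cdc27, a core subunit of the anaphase promoting complex, with -1.0004 in M1 and -0.77 in I1. The other core subunits of the complex in this list did not share one direction, with -0.69 in M1 and -0.40 in I1 for Cdc23, -0.09 and 0.12 for Cdc16, and 0.64 and 0.65 for Anapc5, all short of the threshold.

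Replication genes, which peak earlier in the cycle, had medians of 1.17 in M1 and 0.89 in I1 over 29 genes. In each line 2 were called higher and 0 lower. Of all genes 0.275% were called higher and 0.605% lower in M1, and 0.192% and 0.319% in I1. Their medians were thus smaller than those of the 55 mitotic genes in both lines. The difference between these groups was not tested.

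**Figure D5:**
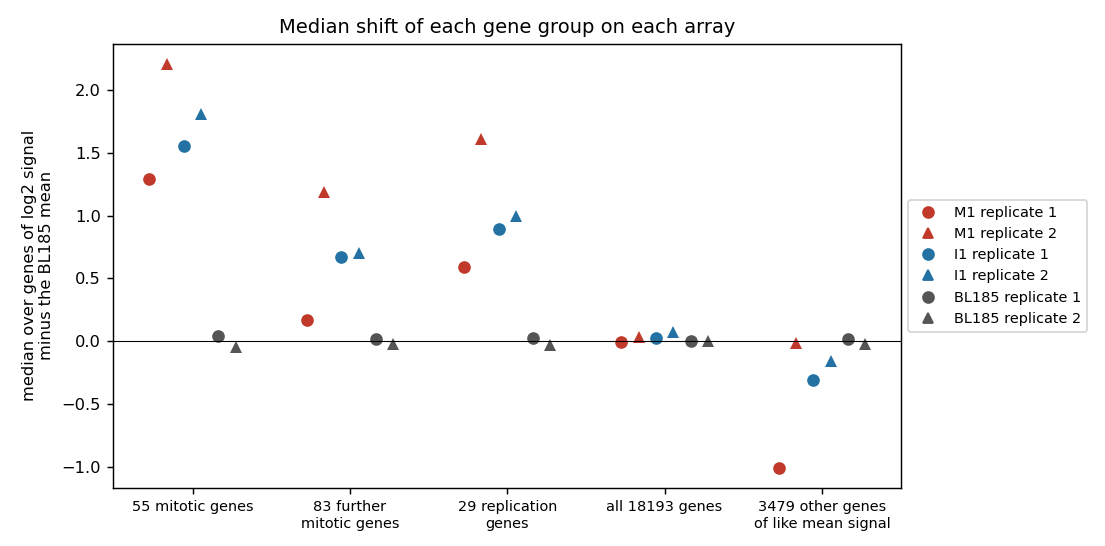
Median over the genes of a group of the log2 signal minus the BL185 mean (vertical axis), for each array and 5 groups of genes (horizontal axis). The mitotic genes stand at 1.29 and 2.21 in M1 and at 1.55 and 1.81 in I1, and the 3479 other genes of like mean signal stand below 0 on all 4 of these arrays.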

How the data were processed

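The deposited values are log2 signals of probe sets that the authors made with RMA and affy, per the submitters' processing notes. Neither versions nor settings are given there, and the log2 scale was inferred from the range, 5.80 to 15.43. No value was normalized again for the main results. Probe sets of 1 gene (34945 of 45101) were reduced to the brightest per gene, by mean over the 6 arrays, leaving 18193 genes. Lines and replicate numbers were read from sample titles. A linear model with 1 mean for each line was fitted over the 6 arrays with limma 3.58.1 (R 4.3.3; 3 residual and 2.27 prior degrees of freedom), with Benjamini-Hochberg adjustment within each contrast and a threshold of 0.05. Errors are SEs of this fit.

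The members, lists and tests were chosen with earlier results of these data known. Values on every array are given for called members and for those of largest and smallest mean difference in each role; Plk1, Cdk1, Cks2, Cdc25b, the Aurora kinases, the NDC80 and condensin I subunits, Espl1 and the genes named for a dim parent signal were added after their values were seen. The band of like signal, from the quartiles of the mitotic genes, was also set after the values were seen. Promoter display had been planned for upstream windows of genes called in both lines; the windows of Mki67 and Cdk1 and the sites after the start depart from that plan. A planned search of protein sequences was not run. In a simulation of I1 minus BL185, 200 of 18193 genes were changed. Each line had a single spread for all its genes, taken from the median variance of that line. Measured spreads differ between genes, so the rates need not hold for the fit to the data. There limma recovered 0% of changes of 1 log2 unit, 31.3% of 2 and 77.3% of 4, with 0 false calls among 72. With the BL185 spread in every line it recovered 100% of changes of each size, with 14 false calls among 214. Same-numbered arrays did not deviate together in every pair of lines (r = -0.131, 0.161 and 0.369), so numbers were not taken as pairs. The number of arrays limits precision. Python 3.11.15 and matplotlib 3.10.9 were used for summaries and figures.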

Additional observations from a re-analysis of the deposited data

How the results depend on the processing

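The median difference of the mitotic genes from BL185 stayed positive under every setting run, and 0 were called lower in M1 or I1. The number called higher in M1 against BL185 (7) was 47 after quantile normalization, 51 after cyclic loess, 12 with a minimum mean log2 of 8, 15 with a gene's probe sets averaged, 17 with array weights (0.565%, 0.566% and 0.434% of all genes under these 3), 0 with only the arrays of the lines compared, and 0 to 55 with an array left out. In I1 (4) it was 45, 46 and 7 under the first 3 of these (0.333% of all genes under the third), 55 with array weights (22.9% of all genes), 55 with only the arrays of the lines compared, and 0 to 55 with an array left out. With the replicate number as a block the counts were 1 in M1 and 0 in I1 (0.044% and 0% of all genes; 46 and 48 at an unadjusted p under 0.05 by limma), and with the BL185 numbers crossed, a choice made after seeing the data, 4 and 0 (0.11% and 0% of all genes). The median difference was 1.22 in M1 and 1.15 in I1 with probe sets averaged, 1.83 in I1 after quantile normalization and 1.86 after cyclic loess, 1.29 to 2.21 in M1 and 1.55 to 1.81 in I1 with an array left out. For I1 minus M1, leaving out an array gave 0 to 32 higher, 0 to 28 lower and a median of -0.48 to 0.45. Directions turned in M1 for 4 genes, Cenpk (-0.10 without M1 replicate 2, 1.67 without M1 replicate 1), Cks2 (-0.11 and 0.59), Cdc25b (-0.064 and 1.01) and Smc4 (-0.035 and 1.16), and for Smc4 with probe sets averaged (-0.0085 in M1, -0.11 in I1). The cause of these shifts was not tested. Without detection calls, dim genes cannot be told from background.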
